A study of Mus musculus with 8 samples.

Results

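Capillary endothelial cells of mouse inguinal white adipose tissue (iWAT) are described here from 8 droplet scRNA-seq libraries of the stromal vascular fraction, the cells left once digested fat has been freed of floating adipocytes. The cells were chosen by their own measured UMIs (unique molecular identifiers, which count captured transcripts). Barcodes were kept within 700 to 30000 UMIs and 200 to 8000 genes if no more than 10% of their UMIs were mitochondrial. A kept barcode was taken as capillary if it held at least 3 UMIs of Pecam1, Cdh5 and Egfl7 together, at least 3 UMIs of Gpihbp1 and Car4 together, and none of the arterial genes Sema3g, Hey1, Gja5 and Stmn2, the venous genes Selp and Ackr1, or Prox1, Ptprc and Pdgfra. Of 44427 barcodes, 36370 were kept and 4552 were capillary cells, which is 12.5% of the kept cells and 55.8% of the 8164 blood endothelial cells (the same endothelial rule without the capillary, arterial and venous terms).

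All 8 libraries came from mice labelled C57BL/6 (C57BL/6J in the study's methods), and each held the SVF of iWAT. The labels give an age of 8 weeks, while the study describes older male mice kept on the schedules for months, and the conflict could not be settled. The 4 Ad-Lib libraries (1, 3, 5 and 7) came from mice with food at all times. The 4 TAN libraries (2, 4, 6 and 8) came from mice given food in 2 windows of the dark phase and at no other time. The labels name no agent, transgene or deletion for either group. The study's methods place the killing of mice some hours after the first window, so the feeding schedule and the time since the last meal cannot be told apart in these data. The labels do not state that each library is 1 mouse, while the study counts 4 Ad-Lib and 4 TAN mice and plots cells by animal replicate. The p-values below measure the spread between libraries.

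Fat capillaries line the exchange surface between blood and adipocytes. Their cells carry GPIHBP1, which holds lipoprotein lipase at the vessel wall where it frees fatty acids from triglyceride-rich lipoproteins, and CD36 and FABP4, which take up and bind those fatty acids. Capillary endothelium also answers hormones, blood flow and oxygen, and new sprouts are led by tip cells that express genes such as Apln, Esm1 and Angpt2.

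Markers that the rule did not use were present at endothelial levels. Over the 8 libraries, Kdr, the main VEGF receptor, was at 1082 ± 143 CPM (UMIs scaled to a sum of 1000000 per library and class) in capillary cells (SD, n = 8) and 2.30 ± 0.869 in lymphocytes. Cldn5, the main claudin of endothelial tight junctions, was at 2179 ± 663 and 2.22 ± 0.837. Timp4, an inhibitor of metalloproteinases, was at 1040.5 ± 201 and 2.84 ± 1.39. These values describe the cells chosen and are no test of them. A Kdr UMI was found in 88.3 to 93.2% of capillary cells per library and in 0.641 to 2.52% of lymphocytes, cells that should lack it and so give the level of free RNA, at median depths of 3768 to 4328 and 4147 to 4997 UMIs per cell. At 2000 UMIs per cell the same shares were 75.7 to 86.1% and 0 to 0.84%.

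Against the arterial cells of the same libraries (at least 2 UMIs of the 4 arterial genes), capillary cells held more Aqp1, a water channel, at 2437 ± 646 against 369.9 ± 191 CPM, and less Rbp7, a retinol-binding protein, at 395 ± 214 against 1457 ± 574 CPM. Vwf, the von Willebrand factor of larger vessels, was at 10.0 ± 3.05 CPM in capillary cells, 90.8 ± 13.5 in arterial cells and 406 ± 143 in venous cells, of which each library held only 4 to 17. Plvap, the diaphragm protein of fenestrae and caveolae, was at 65.5 ± 39.3, 140.3 ± 65.5 and 1046 ± 329 CPM in the same order. Capillary cells thus held the least of both genes. Gene and cell selection are not independent here, so these differences were not tested.

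The thresholds cut a continuous distribution. Capillary cells at the limit of 3 Gpihbp1 and Car4 UMIs numbered 243, and 224 cells that met every other term held 2. At the limit of 3 endothelial UMIs there were 214 cells, and 209 cells otherwise alike held 2. Of the blood endothelial cells left out, 1047 held fewer than 3 Gpihbp1 and Car4 UMIs. Of those with enough, 2485 held an arterial UMI, and 80 held a venous UMI but no arterial one. Both Gpihbp1 and Car4 were present in 3074 of the capillary cells, Gpihbp1 alone in 1477 and Car4 alone in 1.

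Each library gave 418 to 833 capillary cells with 1800437 to 4112262 UMIs in all. Their median was 3768 to 4328 UMIs per cell, and it did not differ detectably between groups (87.0 more in TAN, exact permutation test over 70 assignments, two-sided, p = 0.571, with 0.0286 the smallest p possible).  Of the capillary barcodes, 2 were capillary cells in more than 1 library and 41 were kept in another library, out of 174 kept barcodes found more than once.

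Capillary cells took 13.4%, 11.8%, 13.1% and 12.1% of the kept cells in Ad-Lib libraries 1, 3, 5 and 7. In TAN libraries 2, 4, 6 and 8 they took 19.3%, 13.4%, 7.61% and 10.7%. The TAN values lay on both sides of the Ad-Lib values, with exact 95% binomial intervals (counting error only) of 18.1 to 20.5% in TAN 2 and 6.93 to 8.33% in TAN 6. The group means were 12.6 ± 0.745% and 12.7 ± 4.97% (SD, n = 4 each, exact permutation p = 0.914). Lymphocytes among the kept cells ranged from 143 to 2252 per library; with lymphocytes left out of the denominator the TAN mean was 2.74 percentage points higher (exact permutation p = 0.343).

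As a share of blood endothelial cells, capillary cells made up 58.8%, 58.0%, 49.7% and 54.8% in Ad-Lib 1, 3, 5 and 7. The TAN values were 57.3%, 57.9%, 54.3% and 52.6% in libraries 2, 4, 6 and 8. The groups overlapped throughout, and their means were 55.3 ± 4.14% and 55.5 ± 2.48% (exact permutation p = 1). A change in the makeup of the vessel tree was not detectable with 4 libraries a group. The number of capillaries in the tissue cannot be read from a share of freed cells.

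**Figure D1:**
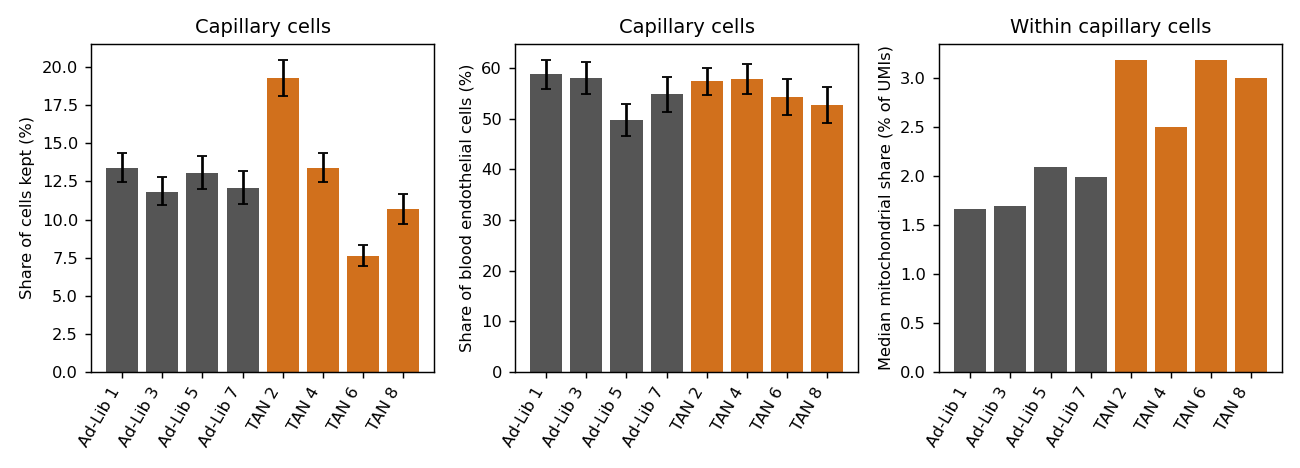
Capillary cells by library: their share of all kept cells, their share of blood endothelial cells (both in percent, bars with exact 95% binomial intervals) and the median mitochondrial share of UMIs within them. The first 2 shares overlap between Ad-Lib (grey) and TAN (orange), and the mitochondrial share runs from 1.66 to 2.09% in Ad-Lib and from 2.49 to 3.18% in TAN.

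The median mitochondrial share of a capillary cell was 1.66%, 1.69%, 2.09% and 1.99% of UMIs in Ad-Lib 1, 3, 5 and 7. It was 3.18%, 2.49%, 3.18% and 3.00% in TAN 2, 4, 6 and 8, so every TAN library lay above every Ad-Lib library. The means were 1.86 ± 0.216% and 2.96 ± 0.324% (exact permutation p = 0.0286, the smallest that 4 against 4 allows). All 13 mitochondrial genes tested had a higher fitted level in TAN capillary cells, by 0.44 to 0.69 on the log2 scale, and 7 of them passed the test described next. This share is also a measure of RNA quality, and its part in the changes below was not tested; with the limit on it at 5% of UMIs in place of 10%, 240 genes were called in place of 272. At that limit the 13 mitochondrial genes were higher by 0.35 to 0.56, all under 1.5-fold, and 11 had an adjusted p below 0.05, so the 7 lost the call. Other classes also had a higher fitted level of mt-Cytb, which rose by 0.69 ± 0.09 in capillary cells. Its log2 change was 0.63 ± 0.15 in lymphocytes, 0.40 ± 0.10 in arterial and venous cells and 0.18 ± 0.08 in adipocyte progenitors. The edgeR adjusted p of these was 0.0554, 0.0401 and 0.322.

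To learn which genes TAN feeding moved in capillary cells, their UMIs were summed per library and compared by edgeR's quasi-likelihood test. Calls needed a change of at least 1.5-fold and an adjusted p (Benjamini-Hochberg) below 0.05, and the 14 genes of the cell rule were left out. Of 10072 genes tested, 272 were called, which is 2.70%. TAN capillary cells were higher in 114 genes (1.13%) and lower in 158 (1.57%). For 98 of the 114 the lowest TAN library lay above the highest Ad-Lib library, and for 131 of the 158 the reverse held; over all genes tested, 4.47% were apart in the first direction and 5.07% in the second. The median change over all genes was -0.004 on the log2 scale. Leaving out TAN 2, the library with the most capillary cells, brought the number called to 181.

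The gene of smallest p was 2210011C24Rik (GRCm38 chr8:84010222-84012171, minus strand). Its levels were 4.44, 7.62, 9.78 and 13.9 CPM in Ad-Lib 1, 3, 5 and 7, from 85 UMIs in all. In TAN 2, 4, 6 and 8 they were 56.4, 58.9, 73.9 and 58.4 CPM, from 645 UMIs. All TAN libraries were several-fold above all Ad-Lib libraries, with a log2 change of 2.88 ± 0.19 (SE, adjusted p = 5.8e-09). Next came Ccnd1 (chr7:144929931-144939925, minus strand), cyclin D1, which drives the G1 phase of the cell cycle. Ccnd1 stood at 83.4, 101, 117 and 93.6 CPM in the Ad-Lib libraries. It stood at 246, 236, 209 and 279.8 CPM in the TAN libraries, and it rose by 1.32 ± 0.11 (SE) on the log2 scale (edgeR adjusted p = 2.88e-08). Ccnd1 was the only one of 15 cell-cycle genes tested that was called, against 2.70% of all genes; a UMI of the proliferation marker Mki67 was found in 0 to 0.864% of capillary cells per library.

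**Figure D2:**
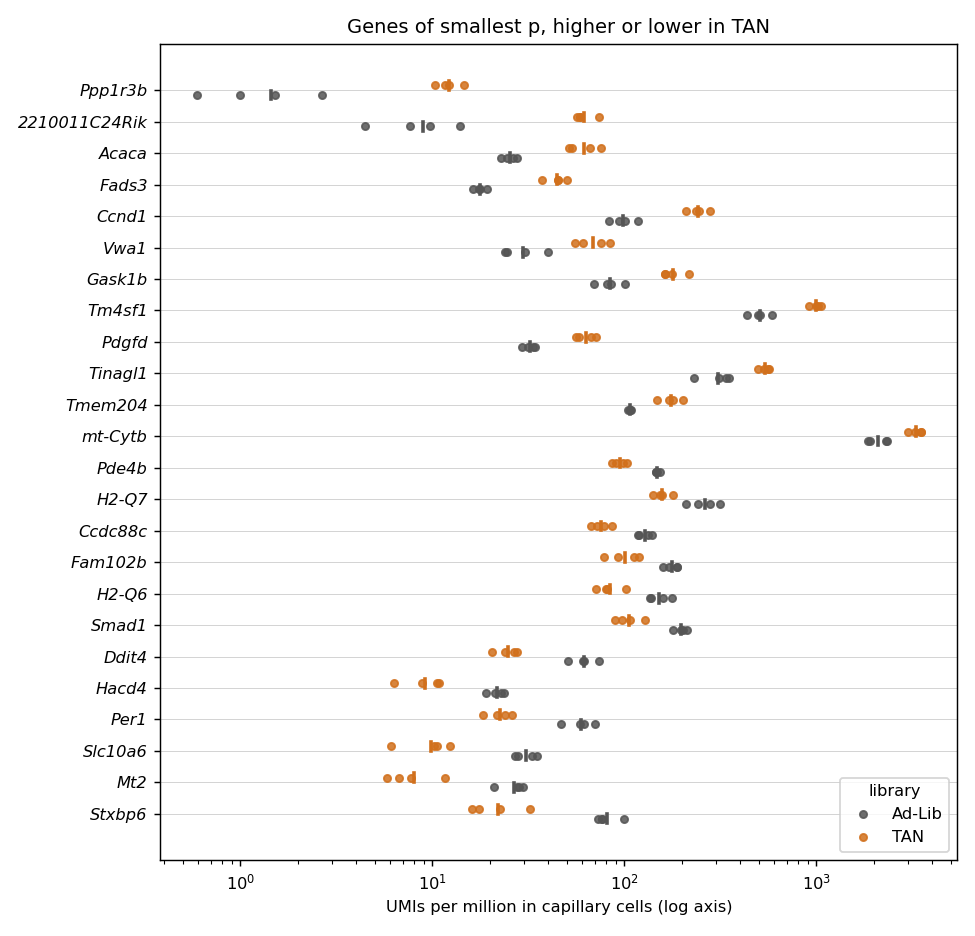
CPM (log axis) in capillary cells for the 12 higher and 12 lower genes of smallest p whose groups do not overlap; each point is 1 library and each bar a group mean (grey Ad-Lib, orange TAN). The widest gaps on this axis are those of Ppp1r3b and 2210011C24Rik above and Stxbp6 and Slc10a6 below.

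Tm4sf1, a small membrane protein abundant in endothelium, went from 437, 586, 509.9 and 497 CPM in Ad-Lib to 998, 1060.3, 1017 and 915 CPM in TAN, a log2 change of 0.99 ± 0.10 (adjusted p = 2.09e-06). Pdgfd, a platelet-derived growth factor, was at 29.3 to 34.3 CPM in Ad-Lib and 55.9 to 70.9 CPM in TAN (0.99 ± 0.12, adjusted p = 1.4e-05). Gask1b, a Golgi-associated kinase family member, was at 69.2 to 101 CPM in Ad-Lib and 162 to 217 CPM in TAN (1.11 ± 0.11, adjusted p = 2.09e-06). These genes were named on condition that the groups did not overlap, so that separation is no further result. The matrix-associated genes Vwa1 and Tinagl1 rose by 1.23 ± 0.15 and 0.84 ± 0.10, and Tmem204 rose by 0.72 ± 0.09. Eng, endoglin, a co-receptor for BMP and TGF-beta ligands, was at 425, 434, 615 and 554 CPM in Ad-Lib and 745, 679, 953 and 928 CPM in TAN (0.72 ± 0.11, adjusted p = 0.000251). Smad1, which carries BMP signals to the nucleus, moved the other way, from 180.2, 198, 202 and 211 to 97.0, 89.3, 107 and 128 CPM (-0.90 ± 0.09, adjusted p = 2.18e-06). Id3, a BMP-responsive gene that was picked after its values were seen, was at 468 to 698 CPM in Ad-Lib and rose to 888 to 1210.3 CPM in TAN (0.84 ± 0.12).

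Of 25 genes of sterol synthesis and lipogenesis tested, 7 were called higher in TAN and 0 lower, against 1.13% and 1.57% of all genes, and the median log2 change of the list was 0.28. The list was collected with earlier results of these data known, so its count is no independent support. All 7 belong to the supply and assembly of fatty acids: Acly and Acss2 make acetyl-CoA, Me1 makes NADPH, Acaca and Fasn build the chain, Elovl6 lengthens it and Thrsp is a lipogenic co-factor. Acaca (chr11:84129672-84401651, plus strand), acetyl-CoA carboxylase 1, was at 22.8, 24.4, 27.6 and 26.4 CPM in Ad-Lib and 66.4, 75.2, 53.3 and 51.7 CPM in TAN (1.34 ± 0.14, adjusted p = 2.24e-06). Me1, malic enzyme, was at 16.6, 24.4, 23.1 and 14.4 and 139.6, 119, 96.1 and 71.9 CPM (2.49 ± 0.29, adjusted p = 0.00284). Elovl6 rested on few UMIs, 36 in Ad-Lib and 213 in TAN, at 3.25, 4.57, 4.001 and 1.99 and 24.6, 24.7, 12.8 and 9.83 CPM (2.45 ± 0.37, adjusted p = 0.00144). Acly rose by 0.83 ± 0.13, Fasn by 1.77 ± 0.32, Thrsp by 1.12 ± 0.22 and Acss2 by 0.70 ± 0.20, with adjusted p of 0.000409, 0.0314, 0.0276 and 0.0407. No enzyme of cholesterol synthesis and neither regulator of the list, Srebf1 and Srebf2, was among the genes called. Acaca and Me1 kept the call in all 19 alternatives and Elovl6 in all 16 that could test it. Acss2 lost it in 11 of 19, DESeq2 included, Fasn in 6 and Thrsp in 5. The fits without Ad-Lib 3, without Ad-Lib 7 and without TAN 2 each left all 3 of these uncalled. Fasn, Thrsp and Acss2 fell outside the rule for naming genes and were picked after their values were seen. Close by in function, Fads3, of the fatty acid desaturase family, went from 19.2, 16.4, 17.8 and 17.4 to 45.2, 45.2, 49.99 and 37.2 CPM (1.34 ± 0.14), and Ppp1r3b, which brings protein phosphatase 1 to glycogen, from 0.592, 1.52, 2.67 and 0.995 to 14.6, 11.6, 12.2 and 10.3 CPM (3.16 ± 0.34, on 14 and 135 UMIs).

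Adipocytes make these enzymes as well, and adipocyte transcripts were present in capillary cells above the level of free RNA. The paper reports higher Fasn, Me1 and Elovl6 with TAN in whole subcutaneous fat and in a preadipocyte cluster with adipocyte markers. A UMI of Adipoq, adiponectin, was found in 12.7 to 31.9% of capillary cells per library and in 0.538 to 3.07% of lymphocytes. The summed level of the 12 adipocyte markers was 2089 to 2914 CPM in Ad-Lib and 1610.1 to 3719 CPM in TAN capillary cells, so it did not part the groups; none of the 12 was at 0 in all libraries. In lymphocytes it was 38.5 to 281 and 89.6 to 269 CPM. This sum does not measure lipogenic transcripts carried over from adipocytes, and their part in the rise was not tested. Of the 10 markers tested, Adrb3, the beta-3 adrenergic receptor, and Pck1 were lower in TAN and none was higher, against 1.57% and 1.13% of all genes. Adrb3 fell from 9.76, 9.90, 6.22 and 10.9 to 3.16, 3.88, 4.44 and 1.55 CPM (-1.46 ± 0.30, adjusted p = 0.00441). Pck1 changed by -0.88 ± 0.19, and it lost the call in cells without adipocyte UMIs (-0.55, adjusted p = 0.561) and in cells without UMIs of 8 markers of other cells (-0.54, adjusted p = 0.243).

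Capillary cells were therefore divided by their UMIs of Adipoq, Plin1, Cidec, Retn and Lep: 2230 cells held 0, 1412 held 1 or 2 and 910 held 3 or more. Lipogenic genes were higher in cells with more adipocyte UMIs, in both groups. Acaca was at 14.1 to 20.6, 18.7 to 30.3 and 29.1 to 64.4 CPM over the 3 classes in Ad-Lib. It was at 29.1 to 47.5, 43.6 to 60.8 and 111 to 126 CPM in TAN. In cells with 0 such UMIs the TAN libraries still lay above the Ad-Lib libraries for Acaca, for Me1 (5.32 to 9.47 against 45.3 to 54.6 CPM), for Fasn (19.7 to 33.8 against 54.0 to 90.1 CPM) and for Thrsp (173 to 216 against 247 to 359 CPM). Elovl6 in these cells was at 0 to 3.95 and 3.85 to 17.7 CPM, so its groups touched. The test on these 2230 cells alone called Acaca (1.13, adjusted p = 0.00152), Me1 (2.73), Fasn (1.57) and Thrsp (0.72). It did not call Acly (0.57, under 1.5-fold) or Acss2 (0.26, adjusted p = 0.809). A cell without a UMI of these 5 genes may still hold adipocyte RNA, and its part in what remained was not tested. Elovl6 and Ppp1r3b were too low to be tested in these cells. The level of 2210011C24Rik over the 3 classes was 3.22 to 13.8, 5.26 to 12.9 and 5.83 to 17.9 CPM in Ad-Lib. In TAN it was 44.0 to 70.2, 51.9 to 79.6 and 46.5 to 78.7 CPM.

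**Figure D3:**
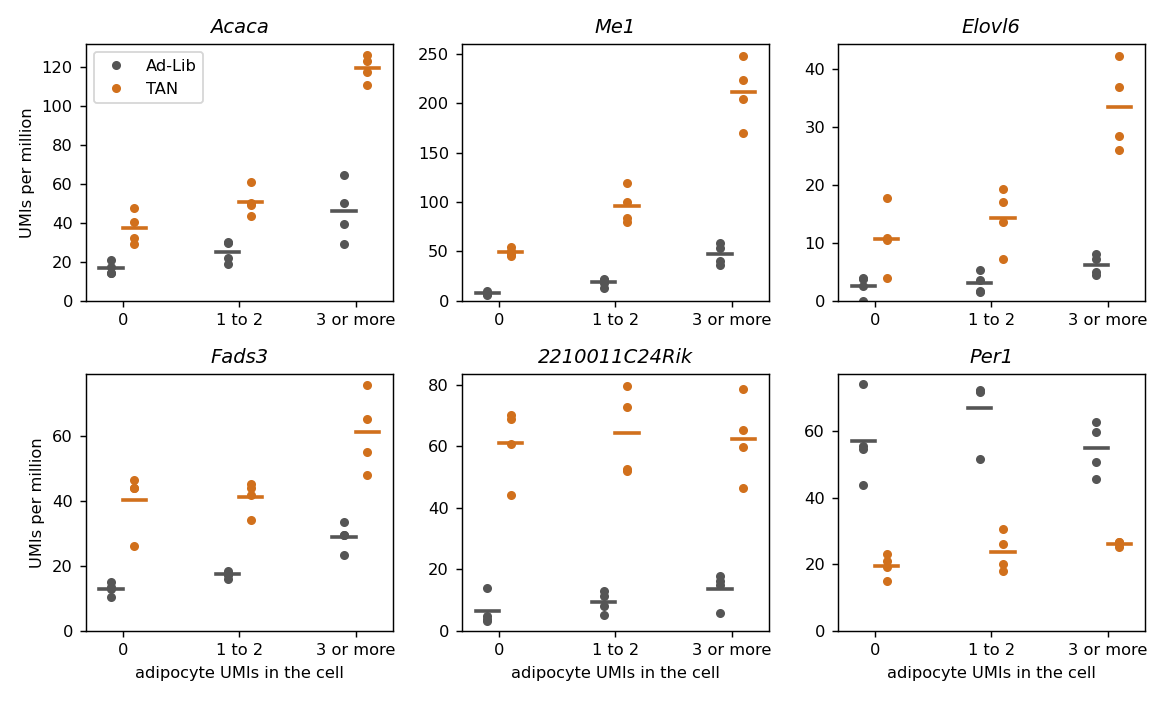
CPM of 6 genes in capillary cells with 0, 1 to 2 or 3 or more UMIs of the adipocyte genes Adipoq, Plin1, Cidec, Retn and Lep; points are libraries and bars group means. Acaca, Me1 and Elovl6 climb with adipocyte UMIs in both groups, the group mean of 2210011C24Rik climbs in Ad-Lib only and that of Per1 in TAN only, and TAN lies above Ad-Lib in each class for all but Per1, with Elovl6 touching at 0 UMIs.

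Of 18 glucocorticoid-responsive genes tested, 6 were called lower in TAN and 0 higher, against 1.57% and 1.13% of all genes. The median log2 change was -0.37, and 12 were not called. The 6 were Per1, a clock gene, Ddit4, an inhibitor of mTORC1, the metallothioneins Mt1 and Mt2, which bind zinc and copper, Sult1a1, a sulfotransferase, and Errfi1, an inhibitor of the EGF receptor. Per1 (chr11:69095217-69109960, plus strand) was at 70.4, 58.6, 61.8 and 46.8 CPM in Ad-Lib libraries 1, 3, 5 and 7. It was at 23.8, 26.1, 18.3 and 21.7 CPM in TAN libraries 2, 4, 6 and 8, under every Ad-Lib value, and it fell by 1.36 (SE 0.15) on the log2 scale (adjusted p = 3.17e-06). Ddit4 (chr10:59949669-59951834, minus strand) went from 61.8, 50.7, 73.8 and 61.2 to 26.7, 27.5, 20.6 and 23.8 CPM (-1.27 ± 0.13, adjusted p = 2.24e-06). Mt2 (chr8:94172664-94173568, plus strand) went from 21.0, 29.7, 27.6 and 28.4 to 5.84, 6.71, 11.7 and 7.76 CPM (-1.78 ± 0.20, adjusted p = 3.17e-06), and its neighbour Mt1 (chr8:94179082-94180327, plus strand) from 123, 150.4, 123 and 176 to 81.5, 81.5, 91.6 and 58.4 CPM (-0.83 ± 0.14, adjusted p = 0.00212). Mt1 lost its call among cells without adipocyte UMIs (-0.41, adjusted p = 0.624) and among cells without macrophage UMIs (-0.64, adjusted p = 0.129), whereas Per1, Ddit4 and Mt2 kept theirs in all 19 alternatives. Sult1a1 changed by -0.59 ± 0.10 and Errfi1, picked after its values were seen, by -0.77 ± 0.16. Errfi1 lost the call without adipocyte UMIs (-0.80, adjusted p = 0.288) and without the 8 markers of other cells, and Sult1a1, close to 1.5-fold, in 7 of 19 alternatives, among them the fits without Ad-Lib 3, 5 or 7 and without TAN 2 or 4. Fkbp5, a standard readout of the receptor, was at 9.90 to 18.7 and 7.76 to 19.0 CPM and was not called (-0.07 ± 0.25, interval -0.57 to 0.44, which here and below spans 2 SE on each side). Tsc22d3, which encodes GILZ, had a log2 change of -0.44 ± 0.10 with adjusted p = 0.00984 and missed the 1.5-fold limit. The members of the list were collected with earlier results of these data known, so its count is no independent support either. The fall was not confined to capillary cells, where the list summed to 3050 to 3434 CPM in Ad-Lib and 2571 to 2970 CPM in TAN. In arterial cells the sum was 3210 to 3579 and 2362 to 3118 CPM. In adipocyte progenitors it was 5602 to 7802 and 4147 to 4856 CPM, and in lymphocytes 843 to 1739 and 545 to 807 CPM.

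The upstream sequences of Per1, Mt1 and Mt2 are printed because these genes fell together and are textbook examples of genes read through short response elements. They are 200 bases before the start of transcription from RefSeq on GRCm38.p6, 5′ to 3′. In the Per1 window of the upstream start (chr11:69098749-69098948, plus strand) capitals mark the E-box CACGTG that the clock factors CLOCK and BMAL1 bind, which 6.02% of 32851 RefSeq windows of 250 upstream bases hold. In the window of its second start (chr11:69099952-69100151, plus strand) they mark TGACG, one arm of the cAMP response element, which 17.8% hold on either strand. In the windows of Mt1 (chr8:94178889-94179088) and Mt2 (chr8:94172418-94172617), both on the plus strand, they mark the core of the metal response element, TGCACNC or TGCGCNC on either strand, which 21.4% hold.
Per1, upstream start: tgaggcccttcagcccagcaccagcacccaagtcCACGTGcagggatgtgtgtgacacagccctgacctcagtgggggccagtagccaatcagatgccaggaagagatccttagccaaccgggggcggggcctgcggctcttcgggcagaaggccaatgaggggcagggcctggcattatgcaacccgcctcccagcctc
Per1, second start: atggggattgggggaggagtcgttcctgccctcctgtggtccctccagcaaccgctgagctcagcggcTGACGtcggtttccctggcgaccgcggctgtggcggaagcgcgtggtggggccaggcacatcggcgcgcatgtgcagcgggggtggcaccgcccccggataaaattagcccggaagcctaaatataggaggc
Mt1: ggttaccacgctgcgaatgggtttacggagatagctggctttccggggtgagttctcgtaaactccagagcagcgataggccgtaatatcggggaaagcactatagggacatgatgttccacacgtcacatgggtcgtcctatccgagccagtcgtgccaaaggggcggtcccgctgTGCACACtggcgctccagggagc
Mt2: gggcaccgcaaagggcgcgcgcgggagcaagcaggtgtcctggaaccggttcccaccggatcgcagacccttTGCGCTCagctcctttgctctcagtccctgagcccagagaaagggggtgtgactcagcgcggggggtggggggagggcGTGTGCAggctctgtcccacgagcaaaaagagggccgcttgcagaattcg

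The Mt2 window of 250 bases held 3 metal-response cores, 2 of them in the printed stretch, and that of Mt1 held 1. Only bases before the annotated RefSeq start were searched, so cores after it were not counted. At least 2 such cores were present in 5.17% of the RefSeq windows. The hexamer AGAACA, one arm of the glucocorticoid receptor's element, searched on both strands, was in none of the 250-base windows of Per1, Mt1, Mt2, Ddit4 or Errfi1 and in 1 of the 3 of Tsc22d3, while 16.1% of all windows hold it. The full cAMP response element was in neither of the 250-base windows of Per1, while 1.55% of all windows hold it. These are matches of letters in short windows and describe no binding.

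Of the other clock genes, Bhlhe41 alone was called, higher in TAN, from 2.66, 4.57, 5.33 and 3.98 to 7.05, 7.41, 7.78 and 10.9 CPM (1.01 ± 0.28, adjusted p = 0.0364); it lost the call in 9 of the alternatives. Of 15 clock genes tested, 1 rose and 1, Per1, fell, against 1.13% and 1.57% of all genes. Dbp, a clock output gene, was at 17.8 to 21.9 CPM in Ad-Lib and 13.1 to 21.2 in TAN (-0.15 ± 0.18).

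In the handling of blood lipids, 2 of 28 genes tested were called, both higher in TAN, against 1.13% of all genes, and the median of the list was 0.18. Rbp7, an endothelial retinol-binding protein and target of PPAR-gamma, was at 247, 259, 180.5 and 188 CPM in Ad-Lib. It was at 554, 540.4, 776 and 416 CPM in TAN, all above Ad-Lib (1.39 ± 0.22, adjusted p = 0.0133), and a Rbp7 UMI was found in 34.9 to 70.5% of cells per library. Slc27a1, the fatty acid transport protein FATP1, was at 5.92, 4.95, 4.89 and 5.47 CPM in Ad-Lib and 13.6, 14.8, 13.9 and 5.17 in TAN, where TAN 8 lay within the Ad-Lib range (1.21 ± 0.28, adjusted p = 0.0105); the call was lost without TAN 2 and with equal numbers of cells per library. The main uptake genes were not called: Cd36 was at 3487 to 4598 and 4384 to 5049 CPM (0.29 ± 0.09, interval 0.11 to 0.46), Fabp4 changed by 0.22 ± 0.08 (interval 0.06 to 0.37) and Lpl by 0.30 ± 0.22 (interval -0.14 to 0.75). Cd300lg, a mucin-like receptor of capillaries, passed the adjusted p but not 1.5-fold (0.36 ± 0.08, adjusted p = 0.0133). The fat-capillary transcription factors Meox2, Tcf15 and Pparg changed by 0.03 ± 0.09, 0.13 ± 0.24 and -0.03 ± 0.15, with intervals of -0.15 to 0.20, -0.35 to 0.61 and -0.33 to 0.27. Aqp7, a glycerol channel, had 0.39 ± 0.14.

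Genes that set vascular tone moved in both directions. Of 17 tested, 2 were called higher and 3 lower, against 1.13% and 1.57% of all genes. Edn1, the vasoconstrictor endothelin-1, was at 2.07, 3.05, 2.22 and 3.98 CPM in Ad-Lib and 7.54, 7.76, 8.89 and 8.28 CPM in TAN (1.55 ± 0.29, adjusted p = 0.00195), on only 28 and 85 UMIs. Its endothelial receptor Ednrb fell from 229, 210.2, 204 and 209.5 to 127, 123, 83.9 and 103 CPM (-0.92 ± 0.12, adjusted p = 0.000251). Ligand and receptor were both apart between the groups, in opposite directions. The other gene called higher was Nostrin, which binds nitric oxide synthase. The cyclooxygenase Ptgs1 and the guanylate cyclase subunit Gucy1a1 were lower (-0.61 ± 0.17 and -0.83 ± 0.22), and both lost the call in at least 8 alternatives. The flow-responsive factors Klf2 and Klf4 (0.02 ± 0.30 and -0.16 ± 0.12) and the nitric oxide synthase Nos3 (-0.11 ± 0.11, interval -0.33 to 0.11) were not called.

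No gene of 28 tested for angiogenesis was called, by edgeR with the 1.5-fold limit, against 2.70% of all genes. Kdr was at 1007, 972, 927 and 929.7 CPM in Ad-Lib and 1243, 1094, 1239.7 and 1247 CPM in TAN, apart but by less than 1.5-fold (0.34 ± 0.09, adjusted p = 0.0213). Flt1, the VEGF decoy receptor, changed by 0.01 ± 0.09 (interval -0.18 to 0.20). The tip-cell genes overlapped between the groups. Apln was at 55.3, 46.5, 27.1 and 46.8 CPM in Ad-Lib and 22.4, 31.8, 23.3 and 85.9 in TAN (-0.19 ± 0.50), with TAN 8 far above the rest. Esm1 was at 10.9, 19.8, 3.11 and 11.9 and 19.7, 17.6, 19.4 and 32.1 CPM (0.91 ± 0.42, adjusted p = 0.317); it was called higher in 5 of 18 alternatives, among them cells without UMIs of 8 markers of other cells (1.62, adjusted p = 6.74e-05) and the fit without Ad-Lib 3. Angpt2 had 0.06 ± 0.28. In the Notch list, which leaves out Notch3 (given below with the pericyte markers), Nrarp, a target and inhibitor of Notch, was the 1 of 17 called (1.57% of all genes were called lower), at 65.0 to 109 CPM in TAN against 133 to 144 CPM in Ad-Lib (-0.62 ± 0.13). It lost the call after thinning to 2000 UMIs and without TAN 6.

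None of 29 genes of insulin and leptin signalling was called by edgeR, against 2.70% of all genes, and the median of the list was -0.06. Insr, the insulin receptor, was at 35.2, 29.7, 40.5 and 31.4 and 32.3, 25.8, 41.7 and 37.2 CPM (-0.01 ± 0.14, interval -0.29 to 0.27). Irs2, Foxo1 and Txnip changed by -0.10 ± 0.31, 0.05 ± 0.11 and 0.03 ± 0.11, and Igfbp3, which binds insulin-like growth factors, by -0.29 ± 0.20 (interval -0.69 to 0.10). Igfbp3 was called lower in 2 of 19 alternatives, one of them cells without macrophage UMIs (-0.83, adjusted p = 0.00412). The leptin receptor Lepr gave a UMI in 0 to 0.239% of capillary cells per library and in 0 to 0.599% of lymphocytes, so it was not above background at this depth. None of 16 genes of junctions and caveolae and none of 20 of the basement membrane was called. Cldn5 had -0.62 ± 0.22 and adjusted p = 0.195 by edgeR and was called lower without TAN 4 (-0.79), Cav1 -0.15 ± 0.09 and Col4a1 -0.29 ± 0.09. Among the 4 capillary markers outside the rule, Aqp1 was the 1 called, lower in TAN, from 2891, 2424, 3415 and 3018 to 1626, 1652, 2054 and 2418 CPM (-0.59 ± 0.11, adjusted p = 0.00147); its change is close to 1.5-fold and 9 alternatives put it under that limit or over the adjusted p.

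**Figure D4:**
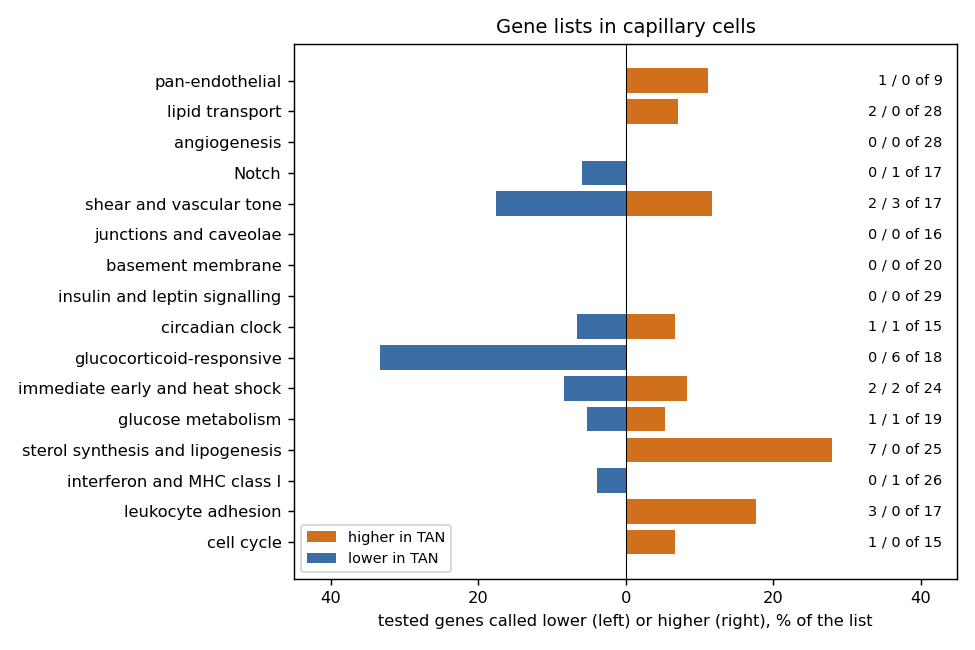
Share of the tested genes of each list called higher (right, orange) or lower (left, blue) in TAN capillary cells, in percent, with the counts at the right edge (higher / lower of tested). Lipogenesis (7 of 25 higher) and glucocorticoid-responsive genes (6 of 18 lower) hold the largest numbers, and 4 lists hold no call.

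Of 17 genes of leukocyte adhesion and recruitment, 3 were called, all higher, against 1.13% of all genes. The chemokine Cxcl12 went from 610.1, 704, 1004 and 865 to 1178, 1010.5, 1449 and 1273 CPM (0.65 ± 0.12, adjusted p = 0.00257). Podxl, an anti-adhesive sialomucin, rose by 0.60 ± 0.10, and Vcam1, which binds integrins of leukocytes, was at 3.11 to 5.92 CPM in Ad-Lib and 7.78 to 12.8 CPM in TAN (1.07 ± 0.27). A Vcam1 UMI was found in 0.891 to 3.11% of capillary cells per library and 0 to 1.28% of lymphocytes, so these ranges overlapped. Podxl lost the call in 7 of 19 alternatives, Vcam1 in 4 of 15 and Cxcl12 in 3 of 19. Among 26 interferon and MHC class I genes, 1 was lower and 0 higher, against 1.57% and 1.13% of all genes, with a median of -0.24. The 1 called was the chemokine Cxcl9, at 824, 532, 538 and 693 and 353, 362, 507 and 395 CPM (-0.67 ± 0.15), and it lost the call in 7 of 19 alternatives, among them the fits without Ad-Lib 1 or 7 and without TAN 2, 4 or 8. Over the 10 H2 class I genes tested, in the list or not, 1 was called higher and 2 lower, with a median of -0.19. H2-Q10, picked after its values were seen, was the 1 higher (0.84 ± 0.25, adjusted p = 0.0483). H2-Q6 and H2-Q7 were lower, with changes of -0.86 ± 0.10 and -0.72 ± 0.11; these are near-identical copies between which reads can be split, so each value is uncertain. Only 2 of the 26 had a fitted level above that of Ad-Lib. Of 24 immediate early and heat shock genes, 2 were higher and 2 lower, against 1.13% and 1.57% of all genes. Hspb1, a small heat shock protein, went from 1859.9, 1789, 1131 and 1491 to 2871, 2599.8, 2923 and 2768 CPM (0.84 ± 0.15, adjusted p = 0.00597), and Hsph1 rose by 1.33 ± 0.26. Fosl2 and Egr2 fell by 0.64 and 0.96 on the log2 scale, and lost the call in 3 and 7 of 19 alternatives. In glucose metabolism, of 19 tested, Eno1 was higher (0.60 ± 0.11) and Pfkfb3, which speeds glycolysis, was lower, at 20.9 to 32.1 against 36.6 to 72.5 CPM (-0.95 ± 0.21); they lost the call in 6 and 5 of 19 alternatives.

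Other genes that fell were headed by Stxbp6 (chr12:44852484-45074709, minus strand), which encodes the SNARE-binding protein amisyn. It was at 100.0, 73.1, 76.5 and 76.6 CPM in Ad-Lib and 17.5, 22.6, 16.1 and 32.1 CPM in TAN (-1.90 ± 0.17, adjusted p = 3.17e-06). Slc10a6, a carrier of sulfated steroids, fell from 34.9, 27.0, 32.9 and 27.9 to 10.2, 10.6, 6.11 and 12.4 CPM (-1.60 ± 0.18). Pde4b, which breaks down cAMP, fell from 149, 146, 153 and 146 to 85.8, 98.8, 90.0 and 103 CPM (-0.64 ± 0.09, adjusted p = 7.96e-05). Hacd4, an enzyme of fatty acid elongation, Fam102b and Ccdc88c fell by 1.30, 0.81 and 0.73 on the log2 scale.

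Transcripts of other cells moved with the groups, and their part in the lower genes was not tested. The counts of markers called lower stand against 1.57% of all genes. The 11 immune markers summed to 165 to 425 CPM in Ad-Lib and 89.5 to 148 CPM in TAN capillary cells; 5 were tested, Csf1r and Lyz2 were called lower, and none was at 0 in all libraries. Csf1r was at 16.0, 5.71, 12.9 and 10.9 CPM in Ad-Lib and 2.19, 1.76, 6.11 and 1.55 CPM in TAN. Lyz2 (-1.54 ± 0.32) lost the call in 9 of 17 alternatives, among them the fits without Ad-Lib 5 and without any one of TAN 2, 4, 6 or 8. A UMI of C1qa was found in 4.44 to 9.16% of capillary cells and 2.65 to 12.8% of lymphocytes, so in capillary cells it was not above free RNA. Capillary cells without a UMI of 9 macrophage genes gave 205 calls, 101 of them higher; Stab1 (from -0.69 ± 0.12 to -0.50) and Wfdc17 (from -1.46 ± 0.26 to -1.34), which macrophages express and which were picked after their values were seen, were no longer called. The 10 pericyte and smooth muscle markers summed to 779 to 1187 CPM in Ad-Lib and 447 to 808 CPM in TAN, of 10 tested Notch3 and Pdgfrb were called lower, and none was at 0 in all libraries. Notch3 lost the call in 8 of 18 alternatives (-0.16 to -0.71) and Pdgfrb in 7 of 18 (-0.26 to -0.71), among them equal numbers of cells, the 5% mitochondrial limit, cells without adipocyte UMIs, and the fits without Ad-Lib 1 or TAN 4 (for Notch3 also without Ad-Lib 3). The pericyte gene Rgs5 was found in 29.1 to 47.1% of capillary cells per library against 0.641 to 2.99% of lymphocytes, and capillary cells with 0 UMIs of 8 markers (Rgs5, Pdgfrb, Acta2, Col1a1, Cd3e, Cd79a, Lyz2 and Plin1) gave 202 calls. The 8 arterial markers outside the rule summed to 495 to 544 and 359 to 444 CPM, with Fbln2 called lower and the 2 groups apart, as they were for the immune sum. The 5 red cell genes ranged over 999 to 11012 and 92.2 to 4071 CPM, with no call among 4 tested. Sums of lymphatic, venous and adipocyte progenitor markers overlapped between groups, at 36.2 to 67.6 and 36.7 to 61.1 CPM, 357 to 487 and 396 to 514 CPM, and 473 to 629 and 356 to 709 CPM.

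To see whether the response of capillary cells was particular to them, the TAN change was tested against that of adipocyte progenitors (APCs, Pdgfra at least 2 UMIs and no endothelial or Ptprc UMI) of the same libraries, in 1 model with the library as a block. Of 12368 genes, the change differed in 203 (1.64%), upward in 114 and downward in 89; without TAN 2 the number was 102. The balance of directions rested on single libraries, with 96 upward and 42 downward without TAN 4 but 90 and 98 without TAN 8. Stxbp6 changed by -1.90 ± 0.17 in capillary cells and 0.24 ± 0.09 in APCs (adjusted p of the difference = 6.45e-07). Edn1 rose in capillary cells and was at -0.68 ± 0.09 in APCs (difference 2.24 ± 0.28, adjusted p = 4.87e-05). Adamts5, an aggrecanase, had 0.66 ± 0.11 against -0.51 ± 0.08 (adjusted p = 0.000101). Edn1 was thus called higher in capillary cells and lower in APCs. It was also called higher in arterial and venous cells (0.84 ± 0.17, adjusted p = 0.0231), with no difference from capillary cells detected (adjusted p = 0.557), and its level in arterial cells was 74.2 to 140.3 CPM in Ad-Lib and 145 to 218 CPM in TAN. The change of Adamts5 in APCs was under 1.5-fold. Sox4, a transcription factor, was at -0.52 ± 0.12 in capillary cells, where it missed 1.5-fold, and 0.78 ± 0.11 in APCs (adjusted p = 6.97e-07). It was called lower in 1 of 19 alternatives, capillary cells without UMIs of the 8 markers of other cells (-0.65, edgeR adjusted p = 0.00519). Hspb1 (0.93 ± 0.10) and Fbln2 (-1.06 ± 0.13) were the others of smallest p. Acaca, Fads3 and Ppp1r3b also differed from APCs, by 1.14 ± 0.16, 1.14 ± 0.18 and 3.05 ± 0.49 (adjusted p = 0.000182, 0.00048 and 0.000686). In arterial and venous cells Acaca (0.77 ± 0.18, adjusted p = 0.0335) and Me1 (1.95 ± 0.20, adjusted p = 9.58e-06) were called higher as well, with no difference from capillary cells detected (adjusted p = 0.402 and 0.494). Per1 was lower in both, with -0.65 ± 0.10 in APCs, and further in capillary cells (difference -0.70 ± 0.16, adjusted p = 0.0174). For Ddit4 the changes were -1.27 ± 0.13 and -1.08 ± 0.55, and their difference was not called (adjusted p = 0.942).

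Against arterial and venous cells, nearly all arterial, the change differed in 28 of 10731 genes (0.261%), 7 upward and 21 downward. The gene of smallest p was Retnla, a macrophage and fat-tissue secreted protein (difference -1.28 ± 0.18, adjusted p = 5.26e-05). It was at 137, 32.8, 224 and 118 and 28.7, 27.9, 34.4 and 53.8 CPM in capillary cells, where it was not called itself. In 2 of 19 alternatives it was called lower there. Without UMIs of the 8 markers of other cells its change was -0.81 (edgeR adjusted p = 0.553). Ctsc, cathepsin C, followed (-3.07 ± 0.44, adjusted p = 0.000135). Its call in capillary cells was lost in 5 of 16 alternatives, and it could not be tested in cells without macrophage UMIs. The immune markers summed to 165 to 425 CPM in Ad-Lib and 89.5 to 148 CPM in TAN capillary cells. In arterial cells they summed to 85.6 to 113 and 89.8 to 177 CPM. The part of macrophage RNA in these differences was not tested. Fbln2, a fibulin of the vessel matrix, was at 51.5, 51.0, 62.2 and 64.2 CPM in Ad-Lib and 22.6, 27.2, 21.7 and 42.4 CPM in TAN capillary cells (-1.01 ± 0.15) and changed by -0.17 ± 0.14 in the larger vessels (adjusted p of the difference = 0.000135). Gask1b rose by 1.11 ± 0.11 in capillary cells and by 0.33 ± 0.15 in arterial and venous cells (adjusted p = 0.00053). The change in capillary cells minus that in the larger vessels was -0.71 ± 0.13 for Fstl1, which was not called in capillary cells themselves (-0.49 ± 0.12), and -1.80 ± 0.32 for the long non-coding RNA Meg3, which was (-1.88 ± 0.32). Fstl1 was called lower in capillary cells in 1 of 19 alternatives. Smad1 differed too, with -0.26 ± 0.14 in the larger vessels (adjusted p = 0.00471), and for Tm4sf1, with 0.63 ± 0.09 there, the difference passed the adjusted p (0.00725) but not 1.5-fold. Ccnd1, Fads3 and Per1 changed by 1.22 ± 0.14, 1.33 ± 0.14 and -1.33 ± 0.16 there, and no difference from capillary cells was detected (adjusted p = 0.97, 0.996 and 0.996). The arterial and venous sums held fewer cells, 173 to 297 a library, and without TAN 2 the number of differences was 14, without Ad-Lib 1 it was 18. On simulated counts this test recovered 55% of 2-fold differences, so one of that size could be missed.

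**Figure D5:**
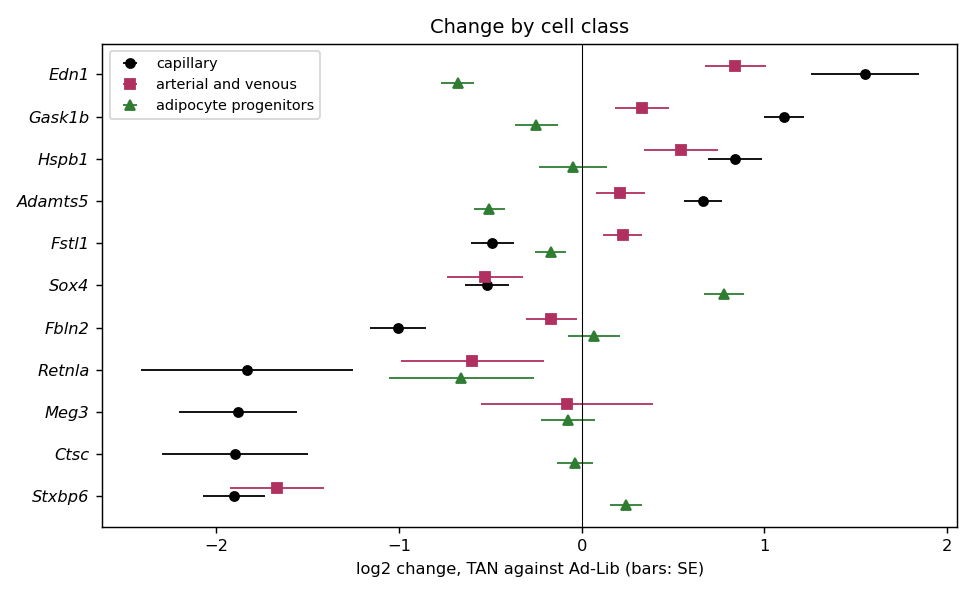
Log2 change of TAN against Ad-Lib (points, bars are SE) in capillary cells, arterial and venous cells and adipocyte progenitors, for the genes of smallest p in the 2 tests of difference. Stxbp6 is far below 0 in both endothelial classes and above 0 in progenitors, while Fbln2 and Meg3 lie well below 0 in capillary cells and closer to 0 in the other classes; Ctsc was not tested on its own in arterial and venous cells.

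Capillary cells differed among themselves. In 4057 cells with at least 2000 UMIs, each thinned to 2000, the variance over the mean was highest for haemoglobin transcripts, 284 for Hbb-bs with 1.22 to 573 over the libraries. Gm42418, a locus that collects ribosomal RNA reads, had 22.8 and Malat1, a nuclear RNA, 14.6. Among genes of the fatty acid path, Fabp4 had 12.4 and Fabp5 5.72. Transcripts typical of other cells followed, with 7.18 for Dcn of fibroblasts, 6.74 for Cd74 of antigen-presenting cells, 6.10 for Cfd of adipocytes and 5.01 for Rgs5 of pericytes. Immediate early genes had narrow ranges over the libraries, with 4.20 to 5.37 for Fos, 3.48 to 5.34 for Egr1 and 2.80 to 4.69 for Jun. Aqp1 had 3.89 and the variance of Plvap was 5.18 times its mean.

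Capillary cells were also described by Car4, carbonic anhydrase 4. Car4 is a gene of the cell rule, and cells without it entered through Gpihbp1, so this division draws on values that chose the cells. After thinning, 1962 cells held a Car4 UMI and 2095 did not, and 5183 genes were compared, of which 92 were higher with Car4 and 68 lower in all 8 libraries. Plvap was lower with Car4, at 9.84 against 84.8 CPM without it (mean log2 ratio over libraries -2.79 ± 1.00 (SD, n = 8)). Apln, the tip-cell ligand, was at 18.0 against 44.8 CPM (-1.43 ± 0.94), and Ehd4, an endocytic ATPase, at 26.3 against 84.3 CPM (-1.51 ± 0.74). Thbs1, thrombospondin 1, Odc1, ornithine decarboxylase, and Mcam were lower as well (-0.97 ± 0.50, -1.01 ± 0.43 and -0.95 ± 0.82). Higher with Car4 were Tbx3, a transcription factor, at 95.7 against 61.4 CPM (0.66 ± 0.33), Adamts5 at 129 against 82.3 CPM (0.65 ± 0.29), Cdkn1c, an inhibitor of cyclin-dependent kinases, at 271 against 177 CPM (0.61 ± 0.30), and the taurine carrier Slc6a6 at 257 against 185 CPM (0.63 ± 0.52). Hbb-bt, a globin, was lower too (-3.91 ± 2.61). This is a description of cells of the same libraries, with no test, and the genes named are among the 10 furthest each way. The count that follows comes from a division on a gene of the rule and tests no link with Car4. Of these, Tbx3, Adamts5 and Slc6a6 were also called higher in TAN, against 1.13% of all genes (1.20 ± 0.18, 0.66 ± 0.11 and 1.11 ± 0.23, edgeR adjusted p = 0.00209, 0.000349 and 0.0373). All 3 lost the call in cells without adipocyte UMIs, a set of fewer cells, where the changes were 1.03, 0.46 and 1.06 (adjusted p = 0.0598, 0.0644 and 0.101). Tbx3 also lost it after thinning to 2000 UMIs, Adamts5 and Slc6a6 without TAN 2, and Slc6a6 in 7 of 19 alternatives in all. In TAN against Ad-Lib, Plvap stood at 20.1, 41.1, 45.3 and 32.4 and 101, 53.6, 127 and 104 CPM, apart between the groups but not called by edgeR (1.49 ± 0.33, adjusted p = 0.0577). It was called in 4 of 19 alternatives, among them DESeq2 (1.49, adjusted p = 0.000732) and the fit without TAN 4. The share of cells with both Gpihbp1 and Car4 was 67.6 ± 4.28% in Ad-Lib and 67.7 ± 5.003% in TAN (SD, n = 4).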

How the data were processed

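Single-cell suspensions of the iWAT SVF were sequenced on the 10x Genomics platform in 8 libraries, 4 Ad-Lib and 4 TAN. The deposited values are UMI counts per gene and barcode, not normalized, which the authors made with Cell Ranger on mm10 (version 3.0.2 in the submitters' processing notes, 6.0.1 in the matrix headers); Seurat is also named there. Each library held 25320800 to 37140950 UMIs over 32285 genes.

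Cells were kept and classed by the limits given with the results. No doublet caller was run, and cells without UMIs of 8 markers of other cells were an alternative. For each class, the UMIs of a library were added up and compared with edgeR 4.0.16 (R 4.3.3; TMM, filterByExpr, robust quasi-likelihood F test), with adjusted p under 0.05 and 1.5-fold as the threshold. Differences between classes were tested as an interaction with the library as a block. Shares and medians were compared by the exact permutation test. CPM values are UMIs scaled to a sum of 1000000, and exact binomial intervals cover counting error only. The interval of a log2 change is 2 SE on each side.

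Genes were named as the 12 of smallest p each way whose groups did not overlap, 38 fixed genes, up to 4 called per list, 6 per test of difference between classes, the 20 most variable among cells and the 10 furthest each way by Car4. The members of the class and the lists were chosen with earlier results of these data known. On simulated counts the capillary test recovered 95% of 2-fold and 100% of 4-fold changes, with 8 false calls among 9915 unchanged genes. The tests of difference recovered 61% (APCs) and 55% (arterial and venous cells) of 2-fold and 99% of 4-fold differences. The simulation gave every gene the same spread between libraries, changed only genes above a minimum mean count and added no library effect. For the tests of difference it drew both classes from the sums of the comparison class. Recovery in the real data, above all for genes of few UMIs, may therefore differ. The alternatives were DESeq2 1.42.0 as test and as size factors, other limits on Gpihbp1 and Car4 or on mitochondrial UMIs, equal cell numbers, thinning to 2000 UMIs, no filter or no minimum fold, and each library left out. Capillary cells without adipocyte or macrophage UMIs and a block of neighbouring library numbers were added after the data were seen. Upstream sequences came from RefSeq and gene positions from GENCODE M21, both on GRCm38.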

Additional observations from a re-analysis of the deposited data

Results flagged for a closer look

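Of 198 groups of 4 libraries examined, 10 (5.05%) held 1 library far from the other 3 by Dixon's test at the 95% level, close to the 1 in 20 that chance gives. Of these, 4 concern 1 library, TAN 8. In it Apln was at 85.9 CPM against 22.4 to 31.8 in the other TAN libraries. Esm1 was at 32.1 CPM there against 17.6 to 19.7, and Angpt2 at 71.4 CPM against 37.8 to 42.8, so these tip-cell genes were all high in the same library. Slc27a1 was low in it, at 5.17 CPM against 13.6 to 14.8. In TAN 4, Kdr was at 1094 CPM against 1239.7 to 1247. In TAN 6, 2210011C24Rik was at 73.9 CPM against 56.4 to 58.9 and Csf1r at 6.11 against 1.55 to 2.19. Among Ad-Lib libraries, Stxbp6 stood at 100.006 CPM in library 1 against 73.1 to 76.6. Egr2 had a low value of 18.2 CPM against 31.7 to 32.8 in the others, and Pdgfrb one of 34.3 against 47.0 to 48.5.

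The change with TAN differed between cell classes for 12 gene and class pairs named above, each with edgeR's interaction test over 8 libraries. Against APCs, the log2 difference of the change was -2.11 for Stxbp6, -1.26 for Sox4, 0.93 for Hspb1, -1.06 for Fbln2, 2.24 for Edn1 and 1.20 for Adamts5. Against arterial and venous cells it was -1.28 for Retnla, -3.07 for Ctsc, -0.85 for Fbln2, 0.77 for Gask1b, -0.71 for Fstl1 and -1.80 for Meg3.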

How the results depend on the processing

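Of 135 named genes tested, 70 were called, of which 37 kept the call in every alternative run for them, 33 lost it in at least 1 and 0 reversed. Of the 65 not called, 9 gained a call in the same direction and 28 changed sign, among them Dcn, which was called lower in cells without UMIs of the 8 markers of other cells (-0.77, against 0.46 in all). The number of genes called in capillary cells was 415 with no filter on low counts, 505 with no minimum fold and 157 in cells without adipocyte UMIs, a smaller set of cells, where 52.9% of calls were higher against 41.9%; 111 of the 157 were shared. It was 250 with DESeq2, and 181 to 296 with 1 library left out (lowest without TAN 2). The change differed from that in APCs in 383 genes with no filter and in 102 to 188 with 1 library left out. It differed from that in arterial and venous cells in 52 genes with no filter, 46 with no minimum fold and 14 to 40 with 1 library left out. The TAN minus Ad-Lib difference in the share of kept cells was -0.104 percentage points with a mitochondrial limit of 5%, -0.0393 with 20% and -2.04 to 1.86 with 1 library left out. For the share of endothelial cells it was -0.419 after thinning to 2000 UMIs, -0.100 with a limit of 20% and -1.66 to 1.37 with 1 library left out. The difference in median UMIs ranged from -12.5 to 174, and that in the mitochondrial share from 1.03 to 1.26 percentage points, with exact permutation p of 0.0571 without Ad-Lib 1 or Ad-Lib 3. The cause of these shifts was not tested. Edn1, Elovl6 and Ppp1r3b, genes of few UMIs, were too low to be tested in 3 of 19 alternatives each. The Ad-Lib and TAN libraries share no replicate number and the labels pair none. With libraries of neighbouring numbers as a replicate block, a choice made after the data were seen, 353 genes were called, 256 of them shared. Deviations of neighbours from their group means correlated at 0.04, 0.16, 0.13 and 0.05 over 10077 genes. For pairs of an Ad-Lib and a TAN library that are not neighbours, the values ran from -0.139 to 0.0602. Whether neighbours were processed together is not stated.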
